A study of Mus musculus with 21 samples.

Results

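Cysteine tRNA carries cysteine to the ribosome, where its GCA anticodon reads both cysteine codons. Nuclear cysteine tRNA genes are transcribed by RNA polymerase III, whose largest subunit is encoded by Polr3a, while mitochondria use a cysteine tRNA of their own that is transcribed from mitochondrial DNA. Isodecoders are tRNAs that share an anticodon but differ elsewhere in the sequence. The nuclear Cys-GCA isodecoders are described here as every tRNA in the count tables whose name begins with Cys-GCA and does not carry the mitochondrial suffix. These were 15 of 209 tRNAs in cerebrum and 13 of 208 in cerebellum, the most of any anticodon in either table, ahead of Ala-AGC with 9. The 13 cerebellar isodecoders were all in the cerebrum table, which also held Cys-GCA-16-1 and Cys-GCA-21-1. All but Cys-GCA-3 had a gene copy number at the end of the name.

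The libraries came from C57BL/6J mice fed ad libitum and given tamoxifen at postnatal day 28, in both genotypes, with tissue frozen at day 42. Mutants carried a Polr3a mutation brought about by recombination after tamoxifen, and the comparison groups were labelled wildtype. The cell type or promoter behind the recombination is not stated in the labels, nor whether wildtype mice carried the recombinase. QuantM-tRNA-seq, a library method for tRNA, was applied to 5 mutant and 6 wildtype cerebella and to 4 mutant and 6 wildtype cerebra. Both sexes were used, with 3 female and 2 male mutants and 2 female and 4 male wildtype libraries in cerebellum. In cerebrum there were 2 female and 2 male mutants and 2 female and 4 male wildtype libraries. The sex mix thus differed by genotype, and the main tests carried no term for sex. The labels do not say whether each library is a different mouse, and the spread behind each p-value may therefore be technical. Because a tRNA library holds no Polr3a transcript and no mRNA markers, neither the mutation nor the tissue label could be checked.

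Cerebellum libraries held 1612754 to 7110313 tRNA counts, without the bacterial spike-in, and cerebrum libraries 4353056 to 7588902. In cerebellum 4 of 5 mutants but 1 of 6 wildtype libraries had more than 3000000, so depth and genotype nearly coincide there. In bulk tissue, fewer cells of a type and less tRNA per cell cannot be told apart. Reads that fit several near-identical isodecoders may be split among them, so the counts of single Cys-GCA isodecoders are uncertain.

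RefSeq lists 57 nuclear genes for cysteine tRNA with this anticodon in the mouse, more than for any other tRNA, the next being Lys-CTT with 24. Of these, 49 lie on chromosome 6 (GRCm38, the assembly also called mm10), at chr6:47978997-48363603. This stretch of 384607 bases has a median spacing of 3488.5 bases between gene starts. The zinc finger genes Zfp777 and Zfp746 lie within it, with Zfp956 before it and Krba1 after it. The other genes are on chromosome 11 (5 genes), chromosome 9 (2 genes) and chromosome 17 (1 gene), and 56 of the 57 are 72 bases long. Positions and sequences of the single isodecoders were not used here.

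The mitochondrial cysteine tRNA, mt-Tc, served as a comparison that shares the anticodon but not the polymerase. It is an RNA gene with no coding sequence, at chrM:5192-5257 on the minus strand (mm10), 66 bases long. Its GENCODE M21 sequence is shown 5′ to 3′ so that the shared anticodon, in capitals at bases 29 to 31, can be seen in its setting.
mt-Tc: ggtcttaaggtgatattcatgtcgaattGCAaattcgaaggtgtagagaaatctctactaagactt

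Despite the number of genes, nuclear Cys-GCA was among the anticodons with the fewest counts in these libraries. How fully each tRNA was captured and mapped was not tested, so few counts need not mean low abundance. It ranked 43rd to 46th of 50 nuclear anticodons in every library. Its summed counts were 1079, 2167, 1796, 2666 and 4507 in the cerebellum mutants, against 736 to 2633 in cerebellum wildtype (median 931.5). In cerebrum they were 4950, 3759, 4462 and 3384 in mutants, against 2382 to 3552 in wildtype (median 2637). The counts follow library depth as well as abundance, so shares of nuclear tRNA counts are given next.

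In cerebrum, Cys-GCA made up 0.0748%, 0.0645%, 0.110% and 0.0792% of nuclear tRNA counts in mutants, against 0.0565% to 0.0718% in wildtype (median 0.0633%). Mutant 3 was the highest library, mutant 2 lay among the wildtype libraries, and the groups overlapped. The means were 0.0820% ± 0.0193 in mutants (SD, n = 4) and 0.0640% ± 0.00580 in wildtype (SD, n = 6; exact two-sided permutation p = 0.0476, 0.0952 adjusted over both tissues; the smallest p that 210 splits allow is 0.00952). The difference did not pass after adjustment. Without mutant 3 it was 0.00881 percentage points, against 0.0180 with all libraries, with an exact permutation p of 0.119.

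In cerebellum the same share was 0.0638%, 0.0528%, 0.0389%, 0.0614% and 0.0785% in mutants, against 0.0376% to 0.0709% in wildtype (median 0.0575%). The groups overlapped over most of their range. The means were 0.0591% ± 0.0146 in mutants (SD, n = 5) and 0.0543% ± 0.0122 in wildtype (SD, n = 6; exact two-sided permutation p = 0.545; the smallest p that 462 splits allow is 0.00433). Within the deeper libraries the mean was 0.0579% in 4 mutants and 0.0574% in the 1 wildtype library. Within the shallower ones it was 0.0638% in the 1 mutant and 0.0537% in 5 wildtype libraries.

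Libraries were next scaled by the trimmed mean of M-values (TMM) to CPM, the counts of a tRNA in a library of a fixed nominal size. The factors for the family sum were taken over anticodon sums, and those for single isodecoders, given further below, over single tRNAs. CPM and log2 changes of the family and of its isodecoders are therefore not on the same scale. With the factors for sums the family held 718, 557, 799 and 662 CPM in cerebrum mutants, against 512 to 679 CPM in cerebrum wildtype (median 551 CPM). The log2 fold change of the summed family was 0.25 ± 0.15 (SE; edgeR quasi-likelihood test, adjusted p = 0.271), where 11.1% of 72 anticodon sums passed. Scaled to mitochondrial tRNA it was −0.061 and to the spike-in −0.026, so its direction depended on the scaling. In cerebellum the family held 503, 445, 331, 502 and 619 CPM in mutants, against 339 to 625 CPM in wildtype (median 489 CPM). Its log2 fold change was 0.02 ± 0.18 (SE; edgeR adjusted p = 0.981), where 0% of 71 anticodon sums passed. That value was −0.31 scaled to mitochondrial tRNA and −0.42 scaled to the spike-in. The genotype effect in cerebellum minus that in cerebrum was −0.21 ± 0.25 (SE; edgeR adjusted p = 0.872), where 1.39% of sums passed.

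**Figure D1:**
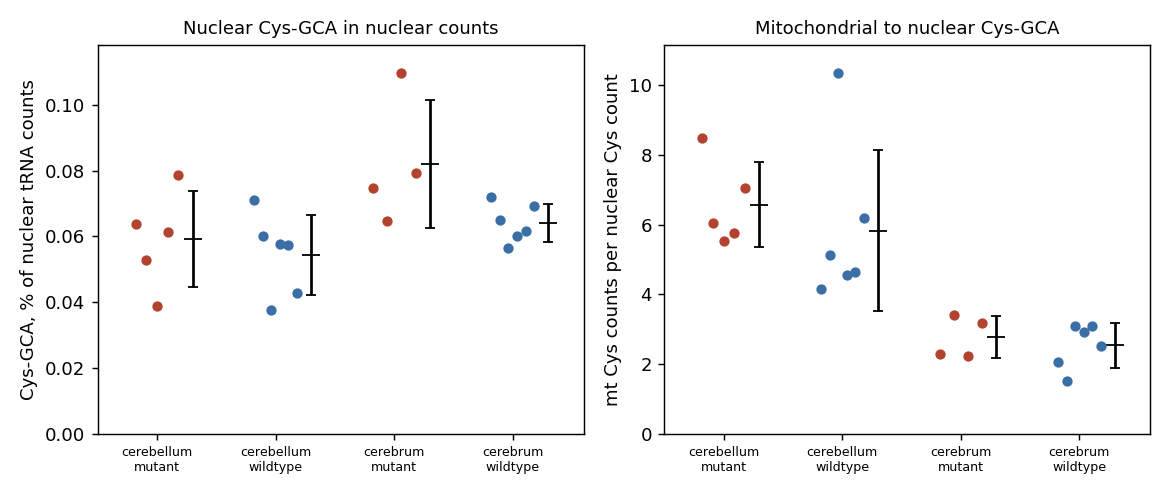
Left, nuclear Cys-GCA as a percentage of nuclear tRNA counts, and right, mitochondrial Cys-GCA counts per nuclear Cys-GCA count, for each library by tissue and genotype. Points are libraries and bars are the mean ± SD. Cerebrum mutant 3 stands highest on the left at 0.110%, and cerebellum wildtype 3 stands highest on the right at 10.3.

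Mitochondrial Cys-GCA had more counts than its nuclear counterpart in all 21 libraries, under the same limit of capture and mapping. There were 8.48, 6.05, 5.52, 5.74 and 7.04 mitochondrial counts per nuclear count in cerebellum mutants, against 4.14 to 10.3 in cerebellum wildtype (median 4.88). The ratio was 2.28, 3.42, 2.24 and 3.17 in cerebrum mutants, against 1.53 to 3.10 in cerebrum wildtype (median 2.72). Every cerebellum library was above every cerebrum library of either genotype. On the TMM scale the mitochondrial tRNA rose in mutant cerebrum, by 0.45 ± 0.15 on the log2 scale (SE; edgeR adjusted p = 0.0347), and it was 1 of 15 that rose among the 22 mitochondrial tRNAs. DESeq2 also called it higher, at 0.51 (DESeq2 adjusted p = 0.00900). With TMM factors taken over anticodon sums it did not pass, at 0.37 (edgeR adjusted p = 0.120), nor with library totals, at 0.42 (edgeR adjusted p = 0.101). Scaled to the spike-in it was 0.10 (edgeR adjusted p = 0.691), so this rise depended on the scaling. In cerebellum the TMM value of the mitochondrial tRNA was 0.37 ± 0.22 (SE; edgeR adjusted p = 0.362).

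The family was uneven in composition, and the same 3 isodecoders led in the same order in all 21 libraries. Cys-GCA-3 came first, then Cys-GCA-8-1 and then Cys-GCA-2-1. Together they held 83.2% ± 0.921 of the family's counts in cerebellum mutants (SD, n = 5) and 82.0% ± 2.04 in cerebellum wildtype (SD, n = 6). In cerebrum they held 84.8% ± 1.63 in mutants (SD, n = 4) and 79.2% ± 2.85 in wildtype (SD, n = 6). The ranges of these 3 did not overlap in any group, whereas among the others most neighbours in the order did overlap. The order among the minor members was not the same in both tissues. Cys-GCA-17-1 came next by mean share in both cerebellum groups and in cerebrum mutants, while Cys-GCA-9-1 did so in cerebrum wildtype. At the low end of the cerebrum order, Cys-GCA-12-1, Cys-GCA-24-1, Cys-GCA-16-1 and Cys-GCA-21-1 averaged 0.265% to 0.643% of the family.

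Counting error limits the minor members. For Cys-GCA-24-1 the mean count was 11.3 in cerebrum mutants and 12.8 in cerebrum wildtype, and 27.6 in cerebellum mutants and 12.2 in cerebellum wildtype. Its counting error alone gives a coefficient of variation of 37.4% in cerebrum mutants and 29.2% in cerebrum wildtype. For Cys-GCA-3 the corresponding values were 2.24% and 2.90%. The measured coefficient of variation of its share was 5.25% in cerebrum mutants and 4.34% in cerebrum wildtype. In cerebellum it was 3.55% in mutants and 6.92% in wildtype, beside 3.44% and 4.80% from the counting error of its raw count. For an isodecoder that holds much of the family, the counting error of the share is smaller than that of the raw count. The part of counting error in the spread of this share was therefore not measured.

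Between genotypes in cerebrum, 1 of the 14 tested isodecoders rose and none fell, and this was the leading one, Cys-GCA-3. Among all 208 tRNAs tested, 19.7% passed in either direction and 8.17% were higher, so 1 of 14, or 7.14%, lies near the background for rises. By kind, 15 of 22 mitochondrial tRNAs rose, while 1 of the 172 other nuclear tRNAs tested rose and 24 fell. Cys-GCA-3 had 384, 269, 437 and 317 CPM in mutants, against 194 to 309 CPM in wildtype (median 239 CPM). Mutants 1, 3 and 4 lay above all wildtype libraries and mutant 2 within their range. The log2 fold change was 0.51 ± 0.16 (SE; edgeR adjusted p = 0.0266). It was 0.39 without mutant 3 and 0.45 without wildtype 3, and passed in neither case (edgeR adjusted p = 0.121 and 0.0626).

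The rise of Cys-GCA-3 depended on the scaling. With library totals the log2 fold change was 0.49 and did not pass (edgeR adjusted p = 0.0534). Scaled to the mitochondrial total it was 0.12 (edgeR adjusted p = 0.514), and scaled to the spike-in 0.15 (edgeR adjusted p = 0.580). Over all tRNAs tested, these scalings moved the median log2 change to −0.41 and −0.36, against −0.03 with TMM. Mitochondrial tRNA made up 14.3% ± 1.19 of tRNA counts in cerebrum mutants (SD, n = 4) and 11.2% ± 0.445 in cerebrum wildtype (SD, n = 6), and its part in this result was not tested.

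The next 2 isodecoders in abundance had positive values that did not pass. Cys-GCA-8-1 had 189, 139, 183 and 176 CPM in cerebrum mutants, against 120 to 167 CPM in wildtype (median 138 CPM), and the log2 value was 0.28 ± 0.14 (SE; edgeR adjusted p = 0.169). Cys-GCA-2-1 had 82.1, 62.9, 93.8 and 71.95 CPM in cerebrum mutants, against 42.2 to 72.06 CPM in wildtype (median 61.6 CPM), and the log2 value was 0.39 ± 0.17 (SE; edgeR adjusted p = 0.123). The groups overlapped at mutant 2 for Cys-GCA-8-1 and at mutants 2 and 4 for Cys-GCA-2-1. DESeq2 called both higher, beside Cys-GCA-3, with log2 fold changes of 0.35 and 0.45 (DESeq2 adjusted p = 0.0386 and 0.0319), where 13.5% of the 208 tRNAs were called higher. Scaled to the mitochondrial total they were −0.11 for Cys-GCA-8-1 and 0.0030 for Cys-GCA-2-1, and scaled to the spike-in −0.066 and 0.041, with none passing.

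The other 11 tested isodecoders had log2 fold changes from −0.48 to 0.21, and none passed. The lowest were Cys-GCA-9-1 at −0.48 ± 0.21 (SE; edgeR adjusted p = 0.123) and Cys-GCA-10-1 at −0.45 ± 0.22 (SE; edgeR adjusted p = 0.169). The highest was Cys-GCA-17-1 at 0.21 ± 0.21 (SE; edgeR adjusted p = 0.513). Over the 14 the median log2 change was 0.01, beside −0.03 over all tRNAs tested, and 7 values lay above 0 and 7 below. Scaled to the mitochondrial total, 4 of the 14 were lower and none higher: Cys-GCA-9-1, Cys-GCA-10-1, Cys-GCA-12-1 and Cys-GCA-18-1, at −0.87, −0.85, −0.81 and −0.69. Scaled to the spike-in, the same isodecoders without Cys-GCA-12-1 were lower, 3 in all. Of all 208 tRNAs, 53.4% were lower with the mitochondrial total and 35.6% with the spike-in, so both counts lie below the background. Under each of these scalings 2 of the 14 values lay above 0 and 12 below. Cys-GCA-21-1 had too few counts to be tested, with 15, 9, 14 and 9 counts in mutants, against 4 to 10 in wildtype (median 8).

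**Figure D2:**
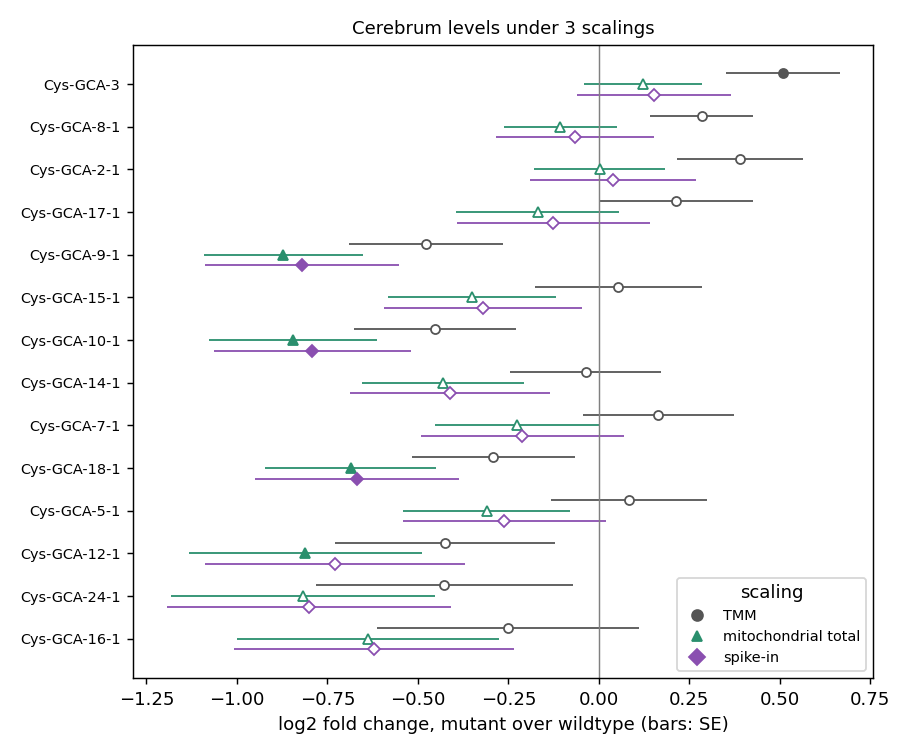
Log2 fold change of mutant over wildtype in cerebrum for the 14 tested isodecoders under 3 scalings, with SE bars and the most abundant isodecoders at the top. Filled symbols passed an adjusted p of 0.05. Cys-GCA-3 passed with TMM at 0.51, while the mitochondrial total and spike-in scalings shifted all values to the left.

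The composition of the family can be compared without any scaling between libraries, because each isodecoder is set against its own family's total. In cerebrum, 4 of 14 isodecoders changed their share: Cys-GCA-3 rose, and Cys-GCA-9-1, Cys-GCA-10-1 and Cys-GCA-18-1 fell. Among 178 nuclear tRNAs tested in this way, 43.3% passed in either direction and 27% were lower, so neither 4 of 14 nor 3 of 14 is above the background. The median log2 change of share was −0.32 over the 14, beside −0.08 over all tested, and 12 of 14 values lay below 0. Shares within a family sum to a fixed total, so a rise of its largest member lowers the shares of others.

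Cys-GCA-3 held 49.4%, 47.3%, 53.1% and 47.8% of the family in cerebrum mutants, against 39.98% to 44.9% in wildtype (median 44.5%). All 4 mutants lay above all 6 wildtype libraries. The means were 49.4% ± 2.59 in mutants (SD, n = 4) and 43.7% ± 1.89 in wildtype (SD, n = 6), a log2 change of 0.18 ± 0.05 (SE; edgeR adjusted p = 0.0171). With edgeR's diffSpliceDGE, which sets each isodecoder against the rest of its family, the value was 0.18 but did not pass.

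Cys-GCA-9-1 held 2.16%, 1.97%, 1.48% and 2.28% in cerebrum mutants, against 2.70% to 4.87% in wildtype (median 3.28%). The groups did not overlap, and the log2 change of share was −0.80 ± 0.18 (SE; edgeR adjusted p = 0.00618). Wildtype 3 was the highest library for this isodecoder.

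Cys-GCA-10-1 held 1.70%, 2.18%, 1.48% and 1.89% in cerebrum mutants, against 2.29% to 4.91% in wildtype (median 2.67%). The groups did not overlap, and wildtype 3 was again highest. The log2 change of share was −0.77 ± 0.22 (SE; edgeR adjusted p = 0.0180). It did not pass without mutant 1, at −0.73, or without mutant 3, at −0.68.

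Cys-GCA-18-1 held 1.60%, 1.62%, 1.21% and 0.975% in cerebrum mutants, against 2.23%, 2.03%, 2.58%, 1.79%, 1.97% and 1.90% in wildtype. The groups did not overlap, and the log2 change of share was −0.61 ± 0.16 (SE; edgeR adjusted p = 0.0126). With Cys-GCA-3 taken out of the family total, an alternative chosen after seeing the data, all 3 were still lower, at −0.64 for Cys-GCA-9-1, −0.61 for Cys-GCA-10-1 and −0.45 for Cys-GCA-18-1.

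Cys-GCA-14-1 held 1.90%, 1.89%, 1.46% and 1.27% in cerebrum mutants, against 1.98% to 2.66% in wildtype (median 2.01%). It did not overlap between the groups either, but its log2 change of −0.36 ± 0.14 did not pass (SE; edgeR adjusted p = 0.0617). In all, 1 share lay above and 4 below the wildtype range, 5 of 14, where 32% of the 178 shares tested did not overlap. The shares of Cys-GCA-8-1 and Cys-GCA-2-1 had log2 changes of −0.04 and 0.07. Cys-GCA-12-1, Cys-GCA-16-1 and Cys-GCA-24-1 had −0.74, −0.58 and −0.75 on few counts, and none of these 5 passed.

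**Figure D3:**
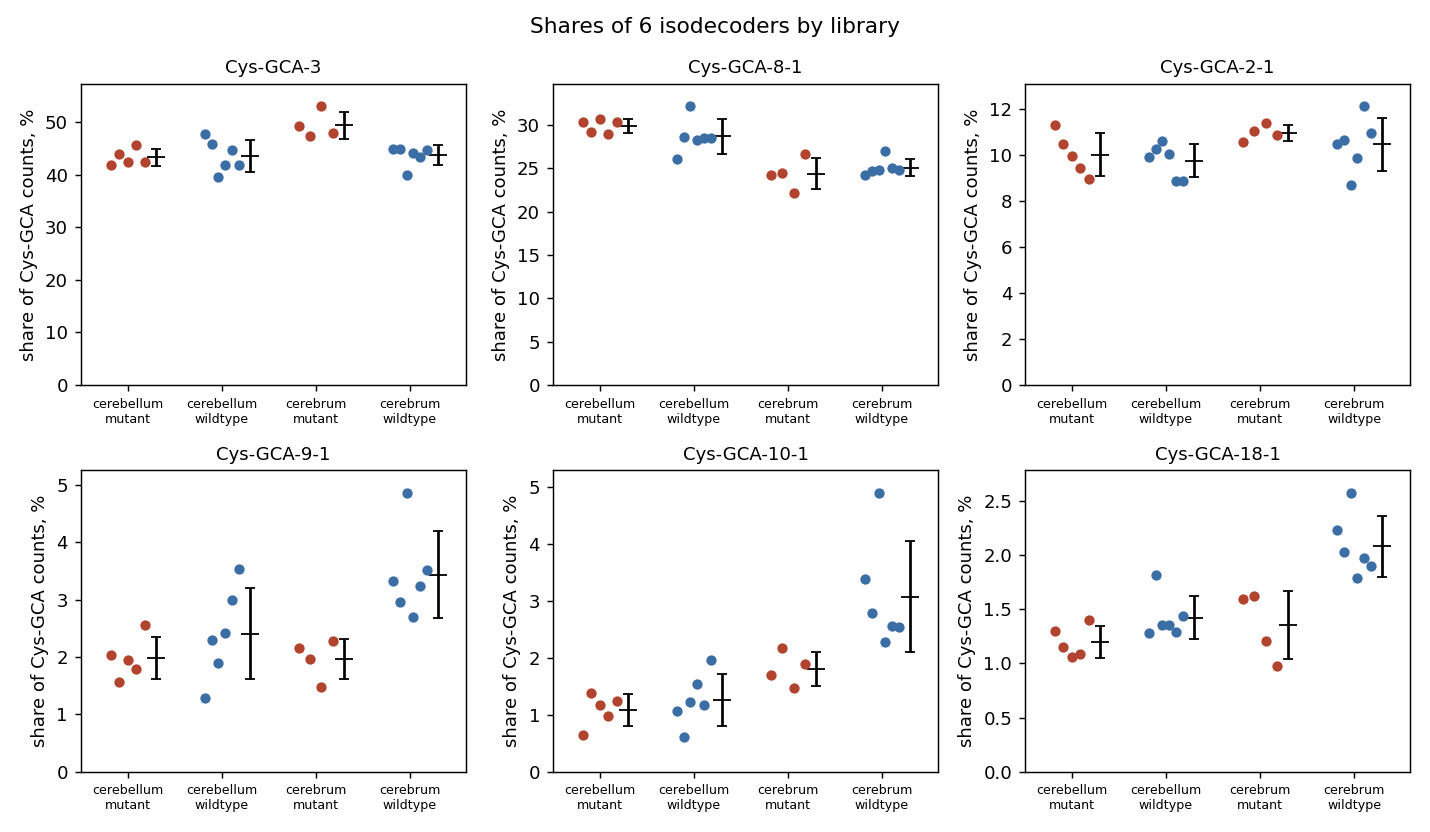
Share of the family's counts in percent for 6 isodecoders, in each library by tissue and genotype, with the mean ± SD beside the points. In cerebrum the mutants lie above wildtype for Cys-GCA-3 and below it for Cys-GCA-9-1, Cys-GCA-10-1 and Cys-GCA-18-1, while the cerebellum groups overlap in all 6.

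In cerebellum no isodecoder passed a test between genotypes, either in level or in share. The SE of the log2 changes of level ran from 0.17 to 0.30. A change has to be a multiple of its SE to pass after adjustment, so changes well above these SE could also be missed. In level, 0 of 13 passed with edgeR, 0 had an unadjusted p under 0.05 and 0 passed with DESeq2. Of all 202 tRNAs, 2.48% passed with edgeR and 19.8% had an unadjusted p under 0.05. In share, 0 of 13 passed and 0 had an unadjusted p under 0.05, where 8.67% of 173 passed and 24.9% had an unadjusted p under 0.05. Log2 changes of level ran from −0.21 for Cys-GCA-15-1 to 0.27 for Cys-GCA-7-1, with a median of 0.07 beside −0.03 over all tRNAs tested. With TMM 8 of the 13 values were above 0. Scaled to the mitochondrial total or to the spike-in all 13 were below 0, and with the mitochondrial total none passed, 2 had an unadjusted p under 0.05, and the median over all tRNAs moved to −0.37.

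The leading isodecoders were close between cerebellum genotypes. Cys-GCA-3 held 41.9%, 44.0%, 42.4%, 45.6% and 42.4% of the family in mutants, against 39.5% to 47.7% in wildtype (median 43.3%). Its log2 change of share was −0.01 ± 0.06 (SE; edgeR adjusted p = 0.935). Cys-GCA-8-1 held 30.3%, 29.2%, 30.7%, 29.0% and 30.3% in mutants, against 26.0% to 32.2% in wildtype (median 28.5%).

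The isodecoders that fell in share in cerebrum overlapped between genotypes in cerebellum. Cys-GCA-9-1 held 2.04%, 1.57%, 1.95%, 1.80% and 2.55% in mutants, against 1.28% to 3.53% in wildtype (median 2.36%). Cys-GCA-10-1 held 0.649%, 1.38%, 1.17%, 0.975% and 1.24% in mutants, against 0.604% to 1.96% in wildtype (median 1.20%). Cys-GCA-18-1 held 1.30%, 1.15%, 1.06%, 1.09% and 1.40% in mutants, against 1.28% to 1.81% in wildtype (median 1.36%). Their log2 changes of share were −0.26 ± 0.23, −0.15 ± 0.25 and −0.21 ± 0.14 (SE), none passing. For Cys-GCA-18-1 the SE is smaller than its p implies (edgeR unadjusted p = 0.371) and understates the error. Counting error alone gives that isodecoder a coefficient of variation of 20.7% in cerebellum mutants and 26.3% in cerebellum wildtype. Counts behind these values were 5 to 115 per library.

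**Figure D4:**
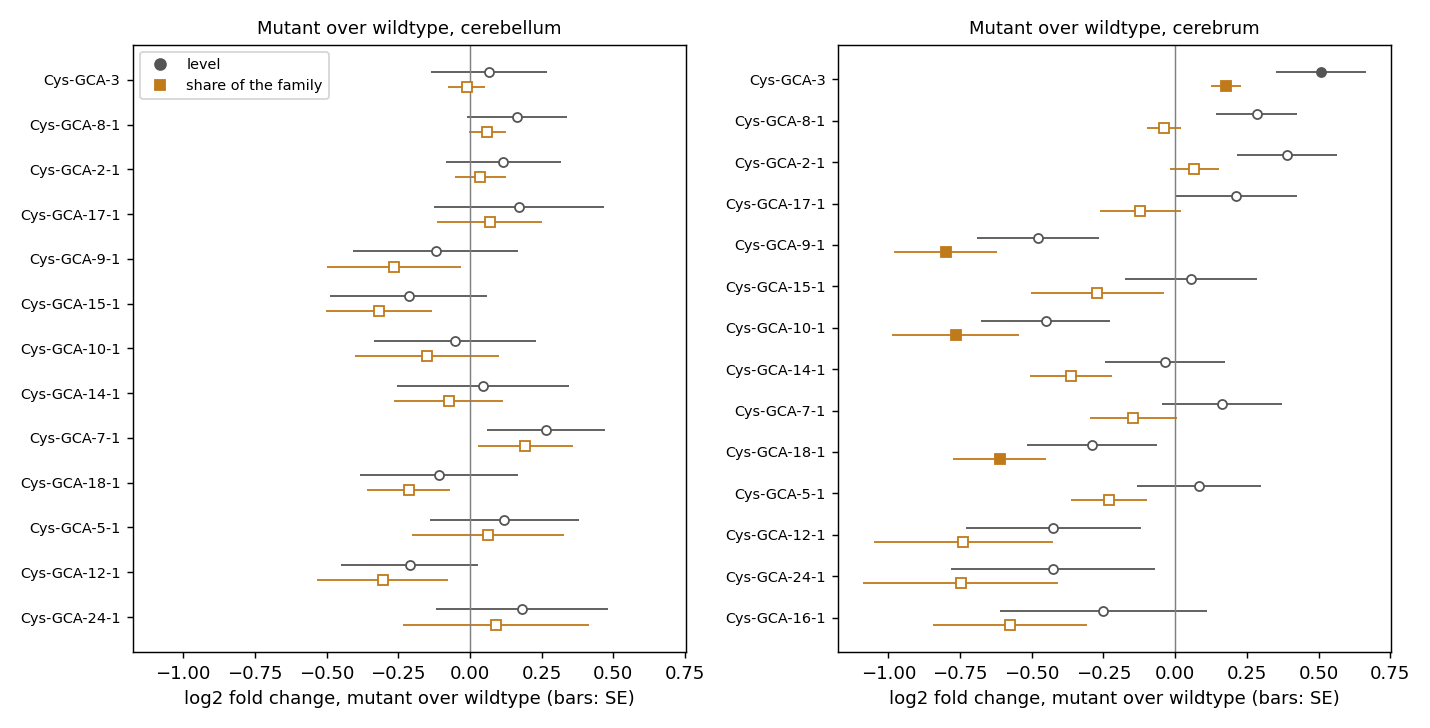
Log2 fold change of mutant over wildtype for each tested isodecoder in cerebellum (left) and cerebrum (right), with SE bars. Circles are levels with TMM scaling, squares are shares of the family, and filled symbols passed an adjusted p of 0.05. No symbol is filled for cerebellum, and 1 level and 4 shares are filled for cerebrum.

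The genotype effect was not shown to differ between the tissues for any isodecoder. In level 0 of 13 passed, 0 had an unadjusted p under 0.05 and 0 passed with DESeq2. Of all 204 tRNAs, 4.9% passed with edgeR and 14.7% had an unadjusted p under 0.05. In share 0 of 13 passed and 1 had an unadjusted p under 0.05, where 18.4% of 174 passed and 33.3% had an unadjusted p under 0.05. That isodecoder was Cys-GCA-3, whose effect on share in cerebellum minus that in cerebrum was −0.19 ± 0.08 on the log2 scale (SE; edgeR adjusted p = 0.0939). For Cys-GCA-9-1, Cys-GCA-10-1 and Cys-GCA-18-1 the difference was 0.54 ± 0.30, 0.62 ± 0.34 and 0.41 ± 0.21 (SE; edgeR adjusted p = 0.211, 0.206 and 0.186).

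Between wildtype tissues the family was lower in cerebellum. The TMM scale here was set over the anticodon sums of all 21 libraries. On it the family held 312 to 575 CPM in wildtype cerebellum (median 451 CPM), against 557 to 795 CPM in wildtype cerebrum (median 587 CPM). The ranges overlapped, with cerebellum wildtype 1 above cerebrum wildtype 3 and 4. The log2 fold change was −0.53 ± 0.16 (SE; edgeR adjusted p = 0.00356), where 75% of 72 anticodon sums passed. With library totals it was −0.26 and did not pass (edgeR adjusted p = 0.140), and scaled to the spike-in it was −1.50 (edgeR adjusted p = 1.21e-11). The tissues were counted in separate tables, and a difference between tissues and one between library sets cannot be told apart.

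Of 13 isodecoders, 9 fell in wildtype cerebellum relative to wildtype cerebrum and none rose. The background was 71.1% of 204 tRNAs in either direction and 37.7% lower. The median log2 change was −0.68 over the 13, beside −0.05 over all tRNAs tested. Cys-GCA-10-1 was lowest at −1.87 ± 0.24 (SE; edgeR adjusted p = 9.72e-08), with 2.80 to 6.59 CPM in wildtype cerebellum (median 5.41 CPM), against 12.7 to 27.1 CPM in wildtype cerebrum (median 17.3 CPM). These groups did not overlap. Cys-GCA-18-1, Cys-GCA-9-1, Cys-GCA-5-1, Cys-GCA-7-1 and Cys-GCA-14-1 fell by 1.13, 1.10, 1.09, 1.01 and 0.98 on the log2 scale.

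Of these 5, 4 did not overlap between the tissues, and with Cys-GCA-10-1 that makes 5 of 13, where 52.9% of the 204 tRNAs did not overlap. Cys-GCA-18-1 had 4.05 to 8.40 CPM in wildtype cerebellum (median 5.56 CPM), against 9.90 to 15.02 CPM in wildtype cerebrum (median 12.8 CPM). Cys-GCA-9-1 had 5.67 to 12.8 CPM in wildtype cerebellum (median 10.3 CPM), against 14.97 to 26.8 CPM in wildtype cerebrum (median 20.9 CPM). Both were without overlap. Cys-GCA-7-1 had 4.46 to 6.42 CPM in wildtype cerebellum (median 5.46 CPM), against 9.03 to 12.4 CPM in wildtype cerebrum (median 11.3 CPM). Cys-GCA-14-1 had 4.86 to 8.88 CPM in wildtype cerebellum (median 6.18 CPM), against 11.1 to 14.7 CPM in wildtype cerebrum (median 12.9 CPM). These did not overlap either. Cys-GCA-5-1 did overlap, at 3.24 to 9.23 CPM in wildtype cerebellum (median 4.94 CPM), against 8.98 to 14.1 CPM in wildtype cerebrum (median 10.9 CPM).

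The 3 leading isodecoders had the log2 changes nearest 0 among these 9. Cys-GCA-3 had 118 to 259 CPM in wildtype cerebellum (median 182 CPM), against 221 to 307 CPM in wildtype cerebrum (median 269 CPM), a log2 change of −0.56 ± 0.17 (SE; edgeR adjusted p = 0.00488). Cys-GCA-8-1 fell by 0.39, with 95.7 to 141 CPM in wildtype cerebellum (median 119 CPM), against 137 to 170 CPM in wildtype cerebrum (median 151 CPM). Cys-GCA-2-1 fell by 0.68, with 29.9 to 53.7 CPM in wildtype cerebellum (median 39.7 CPM), against 48.02 to 75.3 CPM in wildtype cerebrum (median 68.3 CPM). All 3 overlapped between the tissues. With library totals these 3 did not pass, at −0.26 for Cys-GCA-3, −0.38 for Cys-GCA-2-1 and −0.092 for Cys-GCA-8-1, and 6 fell while 1, Cys-GCA-24-1, rose by 0.87, where 27% of the 204 tRNAs fell. Scaled to the spike-in, 12 of 13 fell, where 67.6% of the 204 did. The median over all tRNAs tested was 0.24 with library totals and −0.99 with the spike-in. Without cerebrum wildtype 1, cerebellum wildtype 3 or cerebellum wildtype 6, Cys-GCA-8-1 did not pass, at −0.35, −0.33 and −0.33. The 4 that did not pass were Cys-GCA-15-1 at −0.52, Cys-GCA-12-1 at 0.22, Cys-GCA-17-1 at 0.24 and Cys-GCA-24-1 at 0.58.

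In share, 10 of 13 differed between wildtype tissues, 4 higher and 6 lower in cerebellum. The background was 60.3% of 174 in either direction, 31.6% higher and 28.7% lower. In all tissue comparisons, the cerebrum shares printed are of the total of 15 isodecoders and the cerebellum shares of 13. The log2 changes of share use the total of the 13 found in both. Cys-GCA-16-1 and Cys-GCA-21-1 averaged 0.448% and 0.274% of the family in wildtype cerebrum. Cys-GCA-17-1 held 2.78% to 5.91% in wildtype cerebellum (median 4.31%), against 2.25% to 2.75% in wildtype cerebrum (median 2.43%), with no overlap and a log2 change of 0.78 ± 0.16 (SE; edgeR adjusted p = 0.000413). Cys-GCA-24-1 rose by 1.14 on low counts, with 0.569% to 1.63% in wildtype cerebellum (median 1.05%), against 0.248% to 0.546% in wildtype cerebrum (median 0.483%), again with no overlap. The other shares that rose were those of Cys-GCA-12-1, by 0.79 on low counts, and Cys-GCA-8-1, by 0.18, and both overlapped. With diffSpliceDGE 4 shares passed, those of Cys-GCA-10-1, Cys-GCA-12-1, Cys-GCA-17-1 and Cys-GCA-24-1, where 27.6% of 174 passed.

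Cys-GCA-10-1 was the lowest in share as in level, with 0.604% to 1.96% of the family in wildtype cerebellum (median 1.20%), against 2.29% to 4.91% in wildtype cerebrum (median 2.67%). The groups did not overlap, and the log2 change was −1.31 ± 0.23 (SE; edgeR adjusted p = 8.56e-05). With Cys-GCA-14-1, Cys-GCA-17-1 and Cys-GCA-24-1, 4 of 13 shares did not overlap between the wildtype tissues, where 40.2% of the 174 tested did not. The other shares that fell were those of Cys-GCA-18-1, Cys-GCA-5-1, Cys-GCA-9-1, Cys-GCA-7-1 and Cys-GCA-14-1, at −0.58, −0.53, −0.52, −0.45 and −0.43. Cys-GCA-3 had a log2 change of −0.01 and Cys-GCA-2-1 of −0.12, which did not pass.

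In mutants the tissues are set side by side with no test. Cys-GCA-3 held 41.9% to 45.6% of the family in mutant cerebellum, against 47.3% to 53.1% in mutant cerebrum. Cys-GCA-10-1 held 0.649% to 1.38% in mutant cerebellum, against 1.48% to 2.18% in mutant cerebrum. These 2 were lower in cerebellum without overlap, and Cys-GCA-8-1, Cys-GCA-12-1 and Cys-GCA-17-1 were higher without overlap, 5 of 13, where 43.1% of 174 shares did not overlap.

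Single libraries decided some of the lower shares. Cys-GCA-5-1 did not pass without cerebrum wildtype 1 or 3, at −0.49 and −0.47, or without cerebellum wildtype 1, 2, 3 or 5, at −0.46, −0.48, −0.51 and −0.38. Cys-GCA-9-1 did not pass without cerebrum wildtype 3, at −0.40, or cerebellum wildtype 1, 2 or 3, at −0.37, −0.51 and −0.47. Cys-GCA-14-1 did not pass without cerebrum wildtype 3, at −0.36, or cerebellum wildtype 4 or 5, at −0.38 and −0.43. Cys-GCA-7-1 did not pass without cerebellum wildtype 1, at −0.37.

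**Figure D5:**
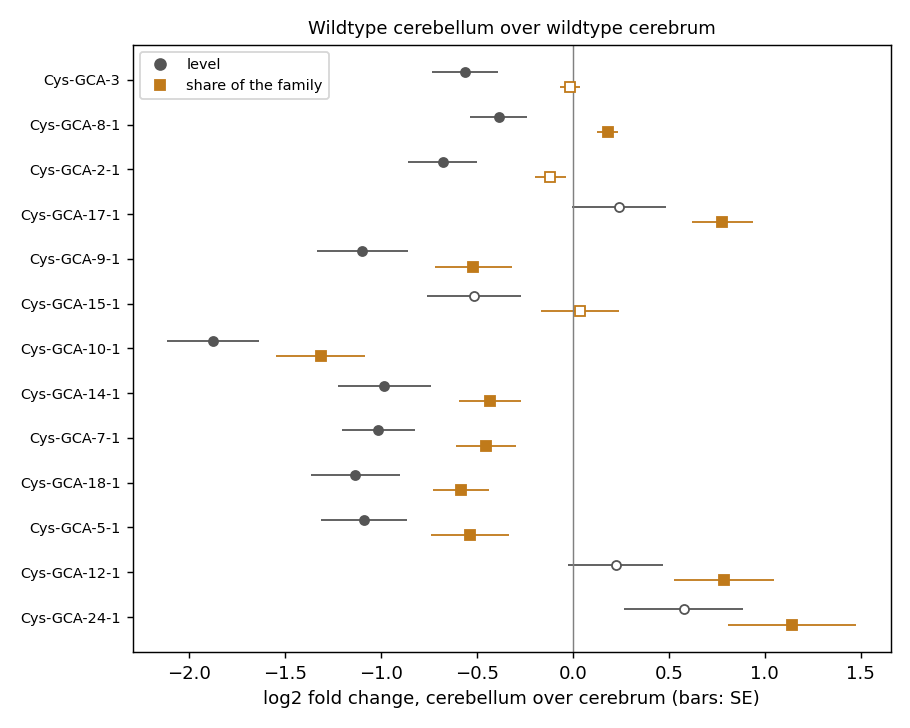
Log2 fold change of wildtype cerebellum over wildtype cerebrum for the 13 isodecoders in both tables, with SE bars. Circles are levels, squares are shares of the family, and filled symbols passed an adjusted p of 0.05. Levels lie below 0 for 10 of 13, lowest for Cys-GCA-10-1 at −1.87, while shares fall on both sides of 0.

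The mitochondrial cysteine tRNA differed in the other direction, with a log2 change of 0.57 ± 0.18 in wildtype cerebellum over wildtype cerebrum (SE; edgeR adjusted p = 0.00559). Of the 7 other nuclear anticodons that begin with G, 4 fell and 2 rose in wildtype cerebellum. Asn-GTT was at −0.70, Tyr-GTA at −0.59, Ser-GCT at −0.59 and Asp-GTC at −0.38, against Gly-GCC at 0.80 and His-GTG at 1.85. Phe-GAA, at −0.02, did not pass. Between genotypes 1 of these 7 passed in cerebrum, Tyr-GTA at −0.65 ± 0.14 (SE; edgeR adjusted p = 0.00126), and 0 in cerebellum with edgeR, where 1 had an unadjusted p under 0.05.

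The nuclear anticodon sums whose pattern was most like that of Cys-GCA were Thr-TGT, Gln-TTG and Pro-CGG. Likeness was the root mean square difference of centred log2 CPM over 21 libraries, 0.195 for Thr-TGT, 0.244 for Gln-TTG and 0.282 for Pro-CGG, with a median of 0.467 over the 49 other nuclear anticodons. Thr-TGT averaged 4983 CPM in cerebellum mutants and 4839 CPM in cerebellum wildtype, and 7612 CPM in cerebrum mutants and 7404 CPM in cerebrum wildtype. The libraries share a scaling and a split by tissue, and the likeness is given as a description.

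The authors' deposited tables give their own DESeq2 values for the family. For the summed family, mutant over wildtype, they give −0.08 in cerebrum (DESeq2 adjusted p = 0.725) and −0.27 in cerebellum (DESeq2 adjusted p = 0.247). Both are below 0, unlike the TMM sums above. In the cerebrum isodecoder table, which runs wildtype over mutant and is turned round here, 4 of 15 Cys-GCA isodecoders had an adjusted p under 0.05 and were lower in mutants, where 57.3% of its 211 entries were under 0.05 in either direction. In the authors' deposited table these were Cys-GCA-9-1 at −0.89, Cys-GCA-10-1 at −0.87, Cys-GCA-12-1 at −0.83 and Cys-GCA-18-1 at −0.70. The same authors' deposited table puts Cys-GCA-3 at 0.10 (DESeq2 adjusted p = 0.634) and the median over all its tRNAs at −0.43. The median over all tRNAs tested was 0.03 in the DESeq2 run here and −0.41 in edgeR scaled to the mitochondrial total. The deposited values are therefore not on the scale of the DESeq2 run here. In the authors' deposited table for cerebellum, 0 of 13 were under 0.05, where 24.3% of its 210 entries were, and all 13 were below 0, with a median over all its tRNAs of −0.33.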

How the data were processed

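Total RNA was extracted with Trizol and made into QuantM-tRNA-seq libraries, per the labels' protocols, and 21 libraries were analysed. The tools named are Bowtie2, cutadapt, DESeq2 and featureCounts, and the build is mm10, per the submitters' processing notes. Tool versions: not given in the sources used here. How reads fitting several isodecoders were assigned is likewise not stated there. Raw counts per tRNA were deposited by the authors in a table for each tissue, whose column names match the sample titles. The authors' deposited comparison tables hold a mean signal (counts over size factors), log2 fold changes with standard errors, a test statistic, which is a score with no fixed range, and p-values.

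Counts were tested here with edgeR 4.0.16 and limma 3.58.1 (R 4.3.3). Low-count tRNAs were removed by filterByExpr at a minimum count of 10, libraries were scaled by TMM, and the quasi-likelihood fit was robust. TMM factors were computed apart for single tRNAs and for anticodon sums. Tests were two-sided, with Benjamini-Hochberg adjustment over the whole table and a threshold of 0.05. The SE is the log2 fold change over the square root of F, and for low-count isodecoders it can understate the error behind the p-value. Shares were tested with the log of the family's total as offset, in nuclear families with at least 2 tested isodecoders. Tissue comparisons used all 21 libraries and 204 shared tRNAs, and genotypes were compared within each tissue's table. Family percentages were compared with exact permutation tests. The bacterial spike-in stayed out of totals and tests, at 0.401% to 1.08% of all counts in cerebellum libraries and 0.222% to 0.374% in those from cerebrum. The edgeR isodecoder and share fits were tested on simulated data, but not the family sums, the permutation tests or the alternatives. The 2 most alike replicates of a tissue differed by 44.3 (cerebellum) and 113 (cerebrum) in chi-square per degree of freedom, above counting noise. Every isodecoder is described, with library values or ranges for those that passed a level or share test and the most abundant, up to 5, and the 3 most alike anticodon sums are named. The isodecoders, lists and tests were chosen with earlier results of these data known. Alternatives were RLE factors, library totals, mitochondrial and spike-in scaling, DESeq2 1.42.0, diffSpliceDGE, other filters, nuclear tRNAs only, sex, depth class, a replicate block and leaving out each library. One was chosen after seeing the data, the family total without its most abundant isodecoder.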

Additional observations from a re-analysis of the deposited data

Results flagged for a closer look

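Of 124 sets of values checked, each a quantity in 1 group of 4 to 6 libraries, 9 held a library far from the rest by Dixon's criterion. Chance alone gives such a result in about 1 of 20 sets, and many of these sets are not independent of each other.

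In cerebrum mutants, Cys-GCA-7-1 was at 8.99 CPM in mutant 4, with the others at 11.8 to 11.97 CPM. In cerebrum wildtype, wildtype 3 stood apart for Cys-GCA-14-1, at 2.66% of the family with the others at 1.98% to 2.02%, and for Cys-GCA-3, at 39.98% with the others at 43.4% to 44.9%. Also in cerebrum wildtype, Cys-GCA-24-1 was at 0.248% in wildtype 1, with the others at 0.458% to 0.546%, and Cys-GCA-8-1 at 27.0% in wildtype 4, with the others at 24.2% to 25.02%.

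In cerebellum wildtype, wildtype 3 had 10.3 mitochondrial cysteine tRNA counts per nuclear count, with the others at 4.14 to 6.18. Also in cerebellum wildtype, Cys-GCA-14-1 was at 1.26% in wildtype 4, with the others at 1.56% to 1.70%, Cys-GCA-18-1 at 1.81% in wildtype 2, with the others at 1.28% to 1.44%, and Cys-GCA-17-1 at 35.6 CPM in wildtype 1, with the others at 12.2 to 20.8 CPM.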

How the results depend on the processing

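In cerebrum the number of isodecoders whose level changed was 1, but 0 with library totals, 4 with mitochondrial total scaling (all lower), 3 with spike-in scaling (all lower), 3 with DESeq2 (all higher) and 0 to 1 when each library was left out. The cerebrum family sum turned to −0.061 with mitochondrial total scaling and −0.026 with the spike-in. The cerebellum sum turned to −0.31 with mitochondrial total scaling and −0.42 with the spike-in, and ran from −0.077 to 0.12 as each library was left out. With the replicate number as a block, 2 levels and 1 share changed in cerebrum, the cerebellum sum was −0.037 and the sum between wildtype tissues −0.54 (edgeR adjusted p = 0.000572); no other count moved by over 1.5 times. Deviations of same-numbered libraries had correlations from −0.18 to 0.61 between cerebrum genotypes, from −0.13 to 0.12 between cerebellum genotypes, and from 0.00934 to 0.44 between wildtype tissues, not all above 0.1; the labels tie no numbers to animals, so these were not treated as pairs, although same-numbered libraries of both tissues had the same sex in 10 of 10 cases, and the family was lower in cerebellum in 6 of 6 such wildtype cases. Between wildtype tissues, a mean count of at least 50 left 4 levels and 3 shares called, diffSpliceDGE left 4 shares, and library totals put the sum at −0.26. The cerebrum difference in percent of nuclear counts was 0.0133 taken over all tRNA counts (exact permutation p = 0.0667) and 0.00881 to 0.0238 as each library was left out. The cerebellum difference ran from −0.000134 to 0.00976. Values of isodecoders that had passed a test kept their direction: 155 kept and 16 lost their call under other settings, and 428 kept and 21 lost it as libraries were left out. The cause of these changes was not tested. Low counts, below 10 in some libraries, limit the minor isodecoders.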
